A study of Homo sapiens with 32 samples.

Results

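The chromatin loops described here are those anchored at the starts of 37 genes known as targets of the transcriptional coactivator YAP and its DNA-binding partners, the TEAD factors. A loop was counted for a gene when at least 1 of its 2 anchors lay within 10 kb of the 5′ end of the gene's record in GENCODE release 44, on hg38. The 37 genes are part of 19970 protein-coding genes, and the starts of the other 19933 genes were measured in the same way. Their loops numbered 36 of 15180 in the wild-type control list, 15 of 5906 in the wild-type sorbitol list, 47 of 18966 in the eGFP-YAP control list and 14 of 5577 in the eGFP-YAP sorbitol list.

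The loops come from in situ Hi-C, which ligates and sequences pairs of DNA fragments that lie close together in the nucleus, in HEK293, a human embryonic kidney cell line. Wild-type HEK293 cells and HEK293 cells of the genotype eGFP-YAP, in which YAP carries a green fluorescent protein, were either left untreated or exposed to 200 mM sorbitol for 1 h, a hyperosmotic stress that draws water out of cells. Of the 32 samples in the series, 14 belong to these 4 conditions, 3 and 3 of wild type and 4 and 4 of eGFP-YAP. Every condition is represented by 1 list, and which of its samples went into the list is not given in the sources used here. No value below has a replicate, no difference was tested, and the 95% intervals cover counting error only. For the eGFP-YAP cells the submitters' design describes a serum starvation of 1 h before sorbitol, and no such step is described for the wild-type cells. The promoter that drives eGFP-YAP, and whether the line is a single clone, are not given in the sources used here. The labels call the cells HEK293 and the growth protocol HEK293T, and the lists of the 2 lines carry different source names, so line and source cannot be told apart.

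The Hippo pathway is a kinase cascade that phosphorylates YAP and keeps it in the cytoplasm. When the cascade is weak, YAP enters the nucleus, binds TEAD factors, which recognise the motif CATTCC, and raises transcription of genes for matrix proteins, growth factors, cytoskeletal proteins and inhibitors of YAP itself. Many TEAD-bound sites are distal enhancers, and AP-1 factors often bind beside TEAD there. The files hold loop positions and no expression or binding data, so whether these genes respond to YAP in these cells was not measured here.

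Promoter stretches of 8 genes that hold the TEAD motif are shown first. Taken for their matches, they do not show how frequent the motif is. RefSeq promoters (GRCh38.p14, from 250 bases before to 50 bases after a start) were found for 28 of the 37 genes. No entry was used for CCN1, ASAP1, CRIM1, DLC1, DOCK5, TGM2, BIRC5, GADD45A and ARHGEF17. In the stretches that follow, written 5′ to 3′ on the strand of the gene, capitals mark CATTCC or its reverse complement GGAATG. All 8 stretches lie outside protein-coding gene records: CCN2 at chr6:131951450-131951553 on the minus strand, ANKRD1 at chr10:90921198-90921319 on the minus strand, NUAK2 at chr1:205321746-205321954 on the minus strand, WWC2 at chr4:183099023-183099066 on the plus strand, THBS1 at chr15:39581021-39581050 on the plus strand, TGFB2 at chr1:218345139-218345168 on the plus strand, FOXF2 at chr6:1389368-1389397 on the plus strand and EDN1 at chr6:12289873-12289902 on the plus strand.
CCN2: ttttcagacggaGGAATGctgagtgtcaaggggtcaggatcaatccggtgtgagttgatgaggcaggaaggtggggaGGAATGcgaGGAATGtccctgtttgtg
ANKRD1: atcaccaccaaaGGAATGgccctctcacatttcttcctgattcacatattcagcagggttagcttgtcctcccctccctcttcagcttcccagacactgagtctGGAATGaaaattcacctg
NUAK2: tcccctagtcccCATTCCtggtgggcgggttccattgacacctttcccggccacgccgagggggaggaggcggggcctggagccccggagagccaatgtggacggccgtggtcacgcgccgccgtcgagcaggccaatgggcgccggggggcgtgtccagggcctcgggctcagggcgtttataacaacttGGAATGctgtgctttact
WWC2: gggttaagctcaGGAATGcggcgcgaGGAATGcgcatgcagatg
THBS1: gaggaatccccaGGAATGcgagcgcccctt
TGFB2: tgtcagggcgcaCATTCCacctccttcctc
FOXF2: gaggccgcgagaGGAATGaagagcgaggag
EDN1: gacgagggagagCATTCCcttgtttgactg

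CCN2, the gene of a matricellular growth factor and a standard readout of YAP, had 3 matches, which began 169, 104 and 95 bases upstream of its start. ANKRD1, whose product is an ankyrin repeat protein, had 2 matches, at 220 and 128 bases upstream. NUAK2, the gene of an AMPK-related kinase, also had 2, at 197 and 18 bases, as did WWC2, a relative of the LATS activator KIBRA, at 222 and 208 bases. Single matches began 46 bases upstream in THBS1, 185 in TGFB2, 196 in FOXF2 and 129 in EDN1, the last counted from a RefSeq start upstream of the GENCODE start. AJUBA, AMOTL2, AXL, PTPN14 and VCL each had 1 match in a promoter that lies inside the gene record.

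The TEAD motif, searched on both strands, was present in the promoters of 13 of the 28 genes, or 46.4% (29.5 to 64.2, Wilson), and in 15.5% of 15287 other genes. At least 2 matches were found in 14.3% of the 28 genes and in 1.41% of the others. The AP-1 motif TGANTCA, whose end letters can overlap either form of the TEAD motif, was found in 7.14% and 8.09%, namely in ANKRD1 and F3. Each of the 13 genes with a TEAD match had a loop at its start in at least 1 list, against 6 of the 15 genes without one. Among other genes those shares were 60.2% with a match and 61.2% without. The RefSeq start lay far from the GENCODE start used for loops in 4 of the 15 genes without a match, by 706 kb in RBMS3, 65.5 kb in CDC42EP3, 61.9 kb in AMOTL1 and 8.39 kb in CCDC80. The contrast in loops between targets with and without a match depends on the start used. With any annotated transcript start, CAV1, CDC42EP3, FSTL1, NT5E, TNS3 and WWC1, none with a match, had a loop as well. Of the 15 genes, only AMOTL1, AREG and RBMS3 then had none. The motif counts describe letters in a window of 300 bases. The association with loops at the gene-record start was seen in these data and was not tested.

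More of the 37 genes had a loop at their start in the control lists than in the sorbitol lists. In wild type 19 genes, or 51.4% (35.9 to 66.6), had a loop in the control list and 11 genes, or 29.7% (17.5 to 45.8), had one after sorbitol. The eGFP-YAP lists gave the same pair of counts, 19 and 11, from partly different genes. Of the other 19933 starts, 29.2% had a loop in wild-type control, 27.8% in wild-type sorbitol, 37.6% in eGFP-YAP control and 28.6% in eGFP-YAP sorbitol. The interval of the YAP/TEAD targets therefore lay above the share of the other starts in wild-type control and contained it in the other 3 lists.

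**Figure D1:**
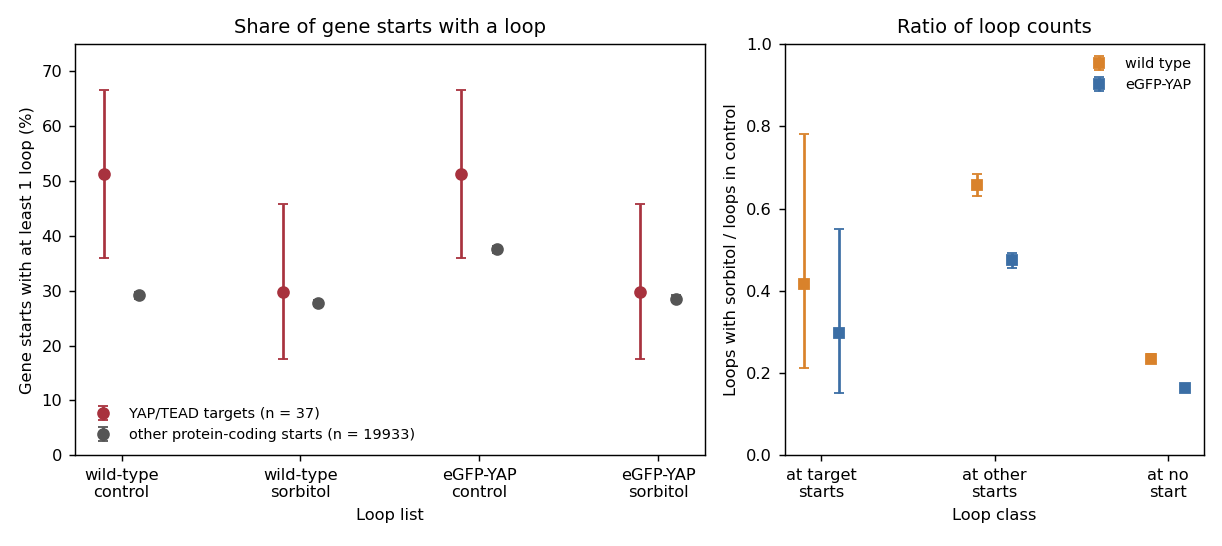
Left, the share of gene starts with at least 1 loop within 10 kb (y axis, percent) in each list, for the 37 YAP/TEAD targets (red) and the 19933 other protein-coding starts (grey), with Wilson 95% intervals. Right, the number of loops with sorbitol divided by the number in control, for loops at target starts, at other starts and at no protein-coding start, with exact 95% intervals; the intervals of the target ratios, 0.417 for wild type and 0.298 for eGFP-YAP, contain those of both other classes.

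The number of loops at the targets was 36 in wild-type control and 15 in wild-type sorbitol, a ratio of 0.417 (0.212 to 0.780, exact). In eGFP-YAP it was 47 and 14, a ratio of 0.298 (0.152 to 0.550). Loops at other protein-coding starts gave 0.657 (0.630 to 0.685) and 0.474 (0.456 to 0.493), and loops at no protein-coding start gave 0.234 (0.224 to 0.246) and 0.164 (0.156 to 0.172). The intervals of the target ratios contain the ratios of both these classes in both lines, so the counts do not place the targets nearer to either. Loops at the targets made up 0.237%, 0.254%, 0.248% and 0.251% of the lists in the order wild-type control, wild-type sorbitol, eGFP-YAP control and eGFP-YAP sorbitol. Loops at other starts made up 36.5%, 61.7%, 41.9% and 67.5% in the same order, higher in both sorbitol lists, while the shares of the target loops lay close together.

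The lists differ in length, and whether length accounts for the lower counts at the targets after sorbitol was not tested. Only the control lists were cut below, to their highest-scoring loops, while the sorbitol lists kept all of theirs. As target loops made up similar shares of all lists, close counts of loops at equal length add little to those shares. With each control list cut by score to the length of its line's sorbitol list, 27.0% of the targets had a loop in wild-type control and 29.7% in eGFP-YAP control. Their loops then numbered 14 and 15, against 15 and 14 after sorbitol. Cut in the same way, the control lists held a loop at 12.5% and 11.7% of the other starts. TGFB2 alone supplied 8 of the 36 wild-type control loops; without it the ratios were 0.536 (0.266 to 1.04) and 0.326 (0.165 to 0.607).

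Gene by gene, 11 targets in each line had a loop in the control list only, 3 in the sorbitol list only, 8 in both and 15 in neither. Control-only starts made up 29.7% of the targets in each line and 16.7% of the other starts in wild type and 21.5% in eGFP-YAP. Sorbitol-only starts made up 8.11% of the targets and 15.3% and 12.5% of the other starts. With the control lists cut to the length of the sorbitol lists, 6 wild-type targets were control-only and 7 sorbitol-only. In eGFP-YAP the counts were 4 and 4. Control-only targets thus no longer outnumbered sorbitol-only targets at equal length. Of the other starts, 6.41% were then control-only and 21.6% sorbitol-only in wild type, and 5.92% and 22.8% in eGFP-YAP. Relative to sorbitol-only starts, control-only starts thus remained more common among the targets than among the other starts, a difference that was not tested. Of the targets with a control loop, 42.1% also had a sorbitol loop in each line, beside 42.7% and 42.8% of the other starts. Of the targets with a sorbitol loop, 72.7% (43.4 to 90.3) had a control loop, beside 44.8% in wild type and 56.3% in eGFP-YAP for the other starts.

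**Figure D2:**
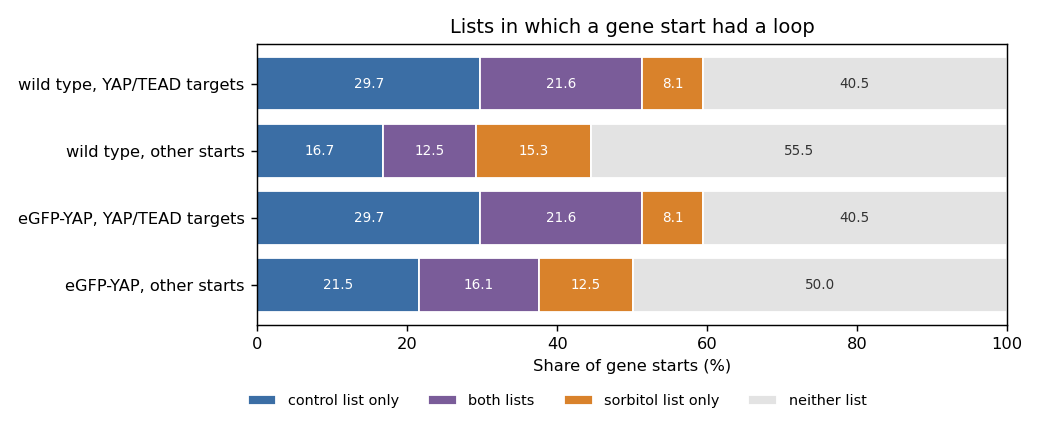
Share of gene starts (x axis, percent) with a loop in the control list only, in both lists, in the sorbitol list only or in neither, for the 37 YAP/TEAD targets and the 19933 other starts of each line. Control-only starts are 29.7% of the targets in both lines and 16.7% and 21.5% of the other starts, with the lists at their deposited, unequal lengths.

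The same status in both lines was less common. CCDC80, CCN1, GADD45A and TGFB2 had loops only in the control list of both lines, 4 of 37 genes where 7.58% of the other starts did so. PTPN14 and VCL had loops only in the sorbitol list of both lines, 2 of 37 genes beside 5.22% of the other starts. With any annotated transcript start, or with anchors up to 25 kb away, PTPN14 also had 1 loop in eGFP-YAP control. CRIM1, FJX1, FOXF2 and IGFBP3 had loops in all 4 lists. No loop was called in any list at AMOTL1, AREG, ASAP1, BIRC5, CAV1, CDC42EP3, DLC1, FSTL1, NT5E, RBMS3, TNS3 and WWC1, 12 genes or 32.4% beside 39.1% of the other starts. Their nearest wild-type control anchors lay from 16.6 kb (WWC1) to 226 kb (ASAP1) away. The absence depends on the start used. With any annotated transcript start, only AMOTL1, AREG, BIRC5 and RBMS3 had no loop in any list.

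The members nearest the 10 kb limit on the inside were TGFB2 at 9.67 kb, AXL at 9.22 kb and FRMD6 at 9.10 kb in wild-type control, FJX1 at 8.46 kb in eGFP-YAP control and NUAK2 at 8.26 kb in wild-type sorbitol. Just outside were CAV1, the coat protein of caveolae, at 10.01 kb in eGFP-YAP control, and TGFB2 at 10.3 kb in 3 lists. EDN1 at 10.4 kb and F3 at 11.8 kb were just outside in wild-type control. FOXF2 was so at 10.4 kb in every list but eGFP-YAP control, and ANKRD1 at 11.1 kb in both control lists. The only loops of AXL and FRMD6 in any list, and the sorbitol loop of NUAK2, therefore rest on this limit.

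**Figure D3:**
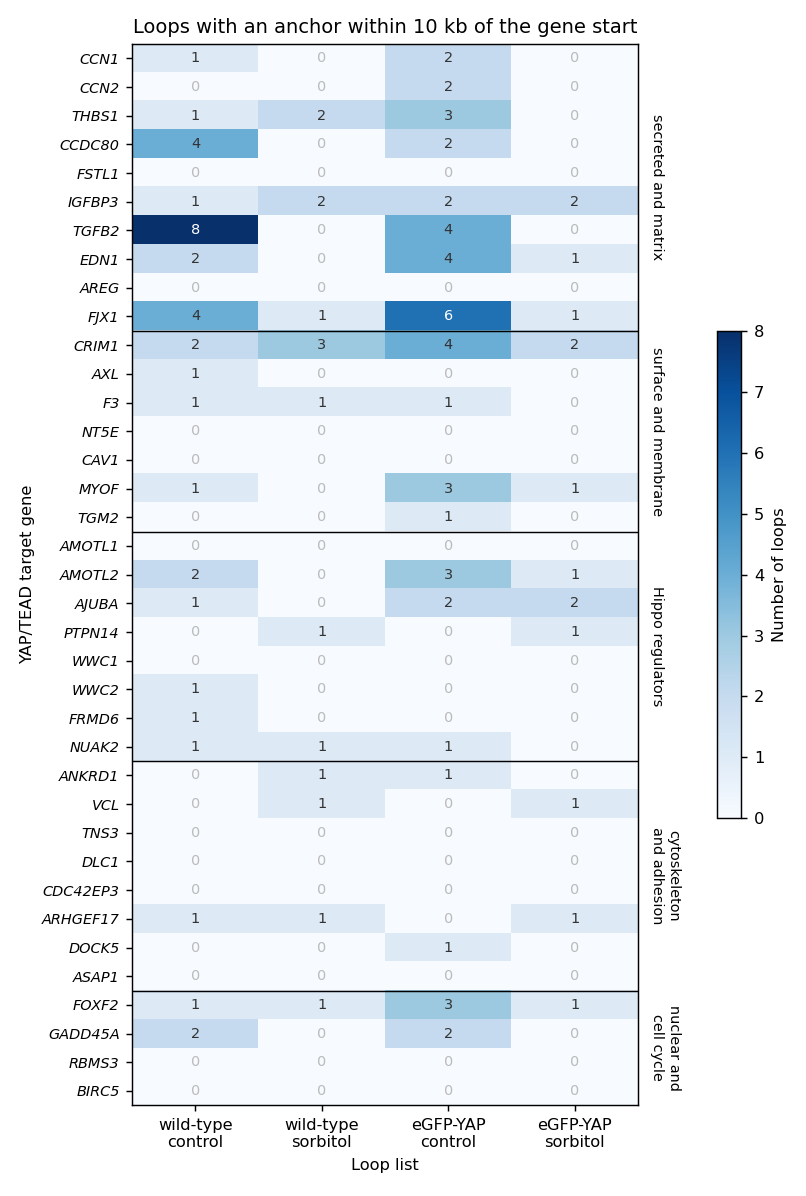
Number of loops with an anchor within 10 kb of the start of each of the 37 genes (rows, grouped by role) in each of the 4 lists (columns); darker blue is a higher count. The highest count is 8 for TGFB2 in wild-type control, and the secreted and matrix genes hold 21 of the 36 and 25 of the 47 control loops, TGFB2 included.

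Secreted and matrix proteins formed the largest group of targets, and with TGFB2 they had most of the control loops. Of these 10 genes, 7 had a loop in wild-type control, 3 in wild-type sorbitol, 8 in eGFP-YAP control and 3 in eGFP-YAP sorbitol. Their loops numbered 21, 5, 25 and 4 in that order. TGFB2 supplied 8 of the 21 and 4 of the 25 control loops, and without it the group held 13 of 28 and 21 of 43. FSTL1, a follistatin-like glycoprotein, and AREG, a ligand of the EGF receptor, had none.

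CCN1, which encodes a matricellular protein and is among the most used YAP targets, had 1 loop in wild-type control and 2 in eGFP-YAP control, and none after sorbitol. Both control lists joined the same anchors, chr1:85305001-85310000 and chr1:85580001-85585000, over 275 kb. The second anchor holds the whole CCN1 gene, and the start of DDAH1 lies within 10 kb of it. The loop stood at percentile 87.0 of the authors' score in the wild-type list and 94.2 in the eGFP-YAP list, a higher percentile being a stronger loop within its list. The other eGFP-YAP control loop ran 125 kb downstream to the start of ZNHIT6, at percentile 85.7. After sorbitol the nearest anchor lay 301 kb away in wild type and 296 kb away in eGFP-YAP.

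The CCN1 anchors carry CTCF motifs that point towards each other, the arrangement in which cohesin is typically halted. They are shown because they face each other and the pair was called in both control lists, so they do not show how frequent facing pairs are. Each stretch is written on the strand of its motif, with the motif in capitals. The upstream motif, without mismatch, lies at chr1:85308301-85308314 on the plus strand outside protein-coding genes, and the downstream one, with 1 mismatch, at chr1:85581394-85581407 on the minus strand in coding sequence of CCN1. A second such pair belongs to the FJX1 loop of 205 kb in eGFP-YAP control, at chr11:35616357-35616370 on the plus strand and chr11:35821957-35821970 on the minus strand, both outside protein-coding genes and with 1 mismatch each. The downstream anchor of the matching wild-type control loop lies 5 kb nearer and does not hold that motif. The NUAK2 anchors, also identical in both control lists, hold motifs that point in the same direction and are not shown.
CCN1 upstream anchor: tccaaagcCCACCAGGGGGCAGcggcggca
CCN1 gene anchor: cttgggcgCCTCCAGGGGGCAGtggcaggc
FJX1 gene anchor: acttatgcCCACTAGGTGGCGAtcttgctt
FJX1 downstream anchor: ctctccaaCCTCTAGGGGGCGCagaggcgt

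CCN2, with the 3 TEAD matches printed above, had loops in eGFP-YAP control only, 2 in number. They ran upstream over 185 kb and 305 kb and were weak, at percentiles 5.23 and 27.6. The nearest anchors in the other lists lay 21.4 kb away in wild-type control, 284 kb away in wild-type sorbitol and 31.4 kb away in eGFP-YAP sorbitol.

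TGFB2, a ligand of the TGF-beta family, had 8 loops in wild-type control, 4 in eGFP-YAP control and none within the limit after sorbitol. All 12 partner anchors lay downstream of its start, at spans from 185 kb to 1475 kb. The strongest wild-type loop joined chr1:218335001-218340000 to chr1:219660001-219665000 over 1325 kb, at percentile 94.45. A wild-type loop of 1475 kb ended in SLC30A10 at chr1:219810001-219815000, at percentile 75.3. The strongest eGFP-YAP loop within the limit joined chr1:218335001-218340000 to chr1:219565001-219570000 over 1230 kb, at percentile 91.8. Both wild-type loops had counterparts in eGFP-YAP that began 10.3 kb from the start, just past the limit, at percentiles 94.6 and 86.8 in control. An eGFP-YAP sorbitol loop from chr1:218330001-218335000 to chr1:219655001-219660000, at percentile 79.9, also began 10.3 kb away. The absence of a TGFB2 loop in that list therefore rests on the 10 kb limit, whereas in wild-type sorbitol the nearest anchor was 1625 kb away.

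IGFBP3, which binds insulin-like growth factors, had 1 loop in wild-type control and 2 in each of the other lists, all running upstream. A loop of 1165 kb joined chr7:45920001-45925000 to chr7:47085001-47090000 with identical anchors in wild-type sorbitol, eGFP-YAP control and eGFP-YAP sorbitol. Its percentiles were 72.2, 91.1 and 86.4 in that order. A longer loop ended at chr7:47175001-47180000 in wild-type control over 1265 kb, at chr7:47170001-47175000 in wild-type sorbitol over 1250 kb and at chr7:47180001-47185000 in eGFP-YAP sorbitol over 1260 kb. These stood at percentiles 71.9, 84.5 and 89.8, and their gene-side anchor was chr7:45910001-45915000 in wild-type control and chr7:45920001-45925000 in both sorbitol lists. IGFBP3 thus had its longest loops in both sorbitol lists as well as in control, with no protein-coding start within 10 kb of the far anchors.

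FJX1, the four-jointed box protein, had 4, 1, 6 and 1 loops in the order wild-type control, wild-type sorbitol, eGFP-YAP control and eGFP-YAP sorbitol, all running downstream. A loop of 655 kb, 640 kb and 650 kb was shared by wild-type control, eGFP-YAP control and eGFP-YAP sorbitol. It ended at chr11:36265001-36270000, chr11:36255001-36260000 and chr11:36260001-36265000, at percentiles 80.8, 82.1 and 56.8, and it began at chr11:35610001-35615000 in wild-type control and eGFP-YAP sorbitol and at chr11:35615001-35620000 in eGFP-YAP control. In wild-type sorbitol the only loop was one of 45 kb to the start of TRIM44, at percentile 16.2. The control lists also shared a loop of 200 kb and 205 kb, from chr11:35615001-35620000 to chr11:35815001-35820000 in wild type and to chr11:35820001-35825000 in eGFP-YAP, at percentiles 60.3 and 54.9. Another shared loop reached the gene LDLRAD3 at chr11:36060001-36065000 over 445 kb in wild type and at chr11:36050001-36055000 over 430 kb in eGFP-YAP, at percentiles 63.2 and 28.95.

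EDN1, which encodes the precursor of endothelin 1, had 2 loops in wild-type control, none in wild-type sorbitol, 4 in eGFP-YAP control and 1 in eGFP-YAP sorbitol. The eGFP-YAP sorbitol loop joined chr6:11660001-11665000 to chr6:12285001-12290000 over 625 kb at percentile 73.8, and eGFP-YAP control held its counterpart from chr6:11655001-11660000 at percentile 32.3. A wild-type control loop at the same place began 10.4 kb from the start and was not counted. The control lists of both lines shared a loop to chr6:12600001-12605000, over 305 kb at percentile 89.0 in wild type and over 315 kb at percentile 77.3 in eGFP-YAP. They also shared one to chr6:11585001-11590000 in wild type and to chr6:11580001-11585000 in eGFP-YAP, over 705 kb and 700 kb at percentiles 12.1 and 24.7.

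THBS1, or thrombospondin 1, had 1 loop in wild-type control, 2 in wild-type sorbitol, 3 in eGFP-YAP control and none in eGFP-YAP sorbitol, so its count was higher after sorbitol in wild type and lower in eGFP-YAP. All 6 loops ran upstream. The 760 kb loop of eGFP-YAP control, from chr15:38810001-38815000 to chr15:39570001-39575000 at percentile 57.95, had a match in the wild-type control list. CCDC80, a secreted matrix protein, had 4 loops in wild-type control, 2 in eGFP-YAP control and none after sorbitol, where the nearest anchors were 400.5 kb and 395.5 kb away. Its strongest loop joined chr3:112645001-112650000 to chr3:112985001-112990000 over 340 kb at percentile 88.3 in wild type and ended at chr3:112980001-112985000 over 335 kb at percentile 48.2 in eGFP-YAP, within 10 kb of the starts of CD200R1 and GTPBP8. A loop of 170 kb was also shared, to chr3:112815001-112820000 in wild type and chr3:112810001-112815000 in eGFP-YAP, at percentiles 37.9 and 16.1.

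**Figure D4:**
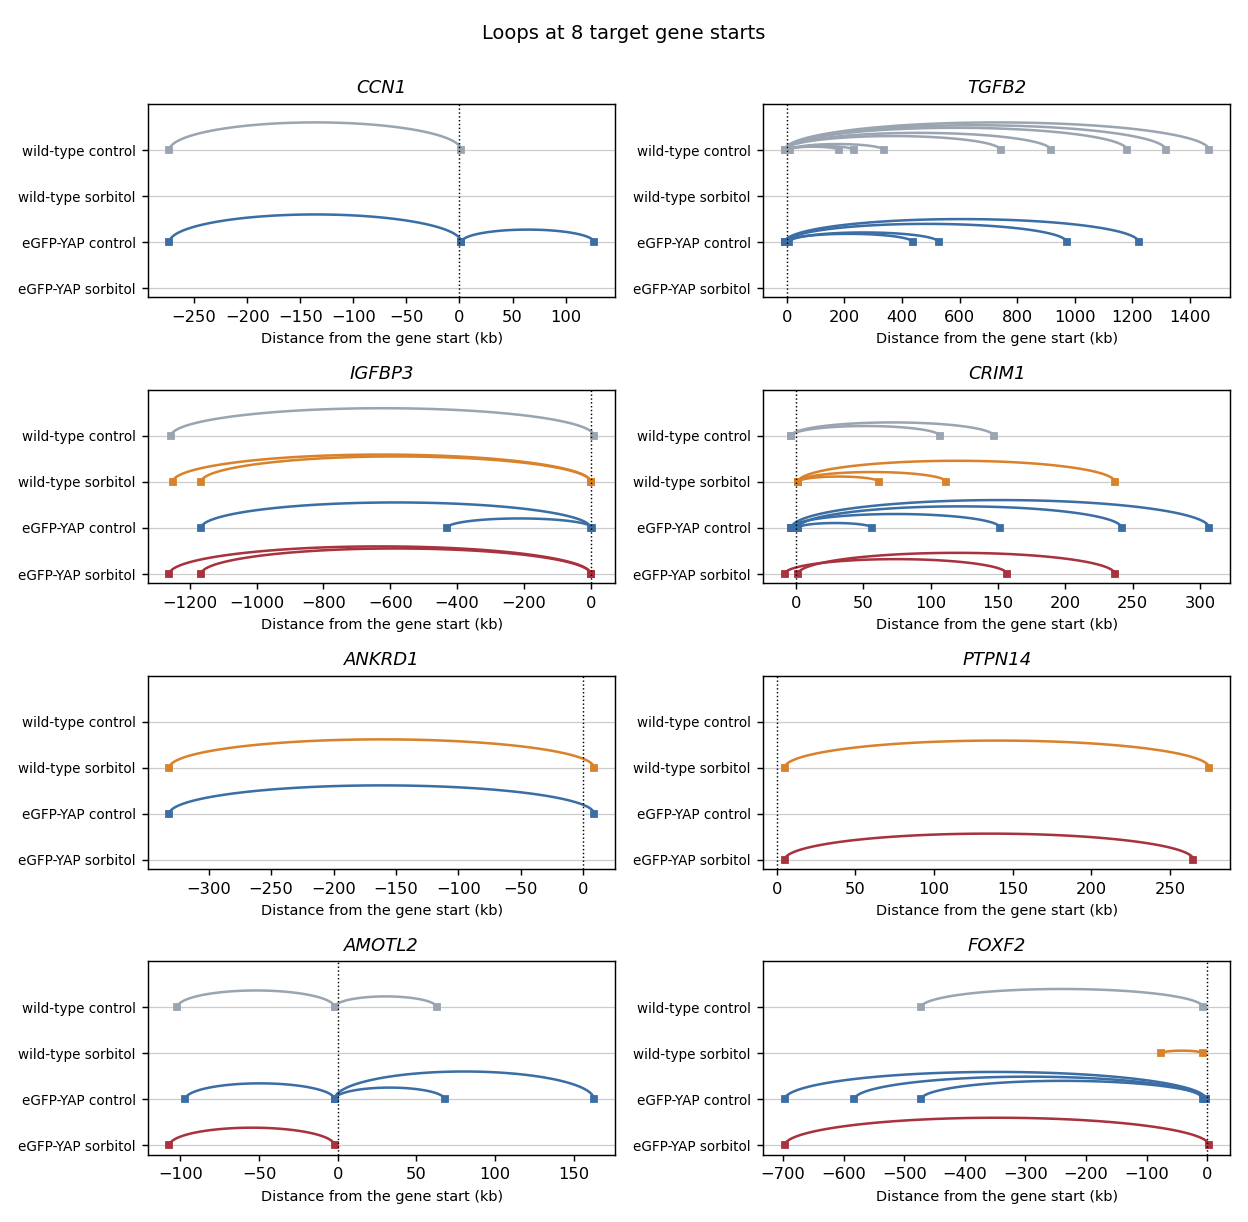
Loops at the starts of 8 targets, drawn as arcs between anchor centres against the distance from the gene start (x axis, kb, positive in the direction of transcription), with 1 level per list. CCN1 and TGFB2 have arcs in the control lists only, PTPN14 in the sorbitol lists only, and IGFBP3 and CRIM1 in all 4 lists.

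Among the 7 surface and membrane genes, 4 had a loop in each control list and 2 in each sorbitol list. Their loops numbered 5 in wild-type control, 4 in wild-type sorbitol, 9 in eGFP-YAP control and 3 in eGFP-YAP sorbitol. NT5E, the ectonucleotidase CD73, and CAV1 had none.

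CRIM1, a transmembrane protein that modulates BMP signals, had 2, 3, 4 and 2 loops in the order wild-type control, wild-type sorbitol, eGFP-YAP control and eGFP-YAP sorbitol, all of them downstream. The highest percentile of any target loop was that of its wild-type sorbitol loop from chr2:36355001-36360000 to chr2:36590001-36595000 over 235 kb, into the gene FEZ2, at 98.5. Identical anchors were joined in eGFP-YAP sorbitol at percentile 79.8, and eGFP-YAP control held a weaker neighbour to chr2:36595001-36600000 at percentile 16.9. No wild-type control loop matched it. A loop from just upstream of the start into the CRIM1 gene joined chr2:36350001-36355000 to chr2:36500001-36505000 in wild-type control at percentile 87.2, and to chr2:36505001-36510000 in eGFP-YAP control at percentile 73.9. In eGFP-YAP sorbitol it joined chr2:36345001-36350000 to chr2:36510001-36515000 at percentile 65.3. One more loop, to chr2:36460001-36465000 in wild-type control and chr2:36465001-36470000 in wild-type sorbitol, spanned 110 kb at percentiles 49.4 and 28.0.

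MYOF, or myoferlin, a membrane repair protein, had 1 loop in wild-type control, none in wild-type sorbitol, 3 in eGFP-YAP control and 1 in eGFP-YAP sorbitol. Its strongest loop ran from the start region into the gene and spanned 105 kb in both control lists, from chr10:93370001-93375000 to chr10:93475001-93480000 in wild type at percentile 95.6 and from chr10:93375001-93380000 to chr10:93480001-93485000 in eGFP-YAP at percentile 98.4. The sorbitol loop of eGFP-YAP, of 95 kb from an anchor 2.67 kb upstream of the start into the gene, stood at percentile 19.2. The start of CEP55 lies within 10 kb of 3 of the 5 MYOF anchors. F3, the tissue factor that starts coagulation, had 1 loop in every list but eGFP-YAP sorbitol. In wild type it spanned 275 kb in control, from chr1:94530001-94535000 to chr1:94805001-94810000 at percentile 86.7, and 270 kb after sorbitol, from chr1:94540001-94545000 to chr1:94810001-94815000 at percentile 47.9. AXL, a receptor tyrosine kinase, had 1 loop, in wild-type control, of 55 kb from chr19:41205001-41210000 to chr19:41260001-41265000 at percentile 37.4, at the start of HNRNPUL1, which eGFP-YAP control matched beyond the limit. TGM2, a transglutaminase, had 1 loop, in eGFP-YAP control, at percentile 8.84.

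Of the 8 genes that act on the Hippo pathway or on YAP, 5 had a loop in wild-type control, 2 in wild-type sorbitol, 3 in eGFP-YAP control and 3 in eGFP-YAP sorbitol. The counts of loops were 6, 2, 6 and 4. AMOTL1, an angiomotin-like protein that binds YAP, and WWC1, or KIBRA, had none.

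PTPN14, a phosphatase that binds YAP, had no loop within 10 kb of its gene-record start in either control list and 1 in each sorbitol list. The wild-type loop joined chr1:214275001-214280000 to chr1:214545001-214550000 over 270 kb at percentile 57.0. The eGFP-YAP loop joined chr1:214285001-214290000 to the same gene-side anchor over 260 kb at percentile 16.4. Both ended within 10 kb of the start of SMYD2, and the nearest control anchors lay 27.4 kb and 22.6 kb from the PTPN14 start.

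AMOTL2, another angiomotin-like protein, had 2 loops in wild-type control, none in wild-type sorbitol, 3 in eGFP-YAP control and 1 in eGFP-YAP sorbitol, all from the anchor chr3:134375001-134380000. Its upstream loop ended at chr3:134475001-134480000, chr3:134470001-134475000 and chr3:134480001-134485000 in wild-type control, eGFP-YAP control and eGFP-YAP sorbitol, at percentiles 38.7, 36.3 and 8.98. The wild-type control and eGFP-YAP sorbitol ends lay within 10 kb of the starts of ANAPC13 and CEP63. Its downstream loop ended at chr3:134310001-134315000 in wild-type control at percentile 51.3 and at chr3:134305001-134310000 in eGFP-YAP control at percentile 64.6.

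AJUBA, a LIM protein that binds LATS kinases, had 1 loop in wild-type control, none in wild-type sorbitol and 2 in each eGFP-YAP list. The control lists shared a loop to CDH24, from chr14:22985001-22990000 to chr14:23055001-23060000 over 70 kb at percentile 74.4 in wild type and from chr14:22990001-22995000 to chr14:23050001-23055000 over 60 kb at percentile 66.6 in eGFP-YAP. A loop of 425 kb in eGFP-YAP control, from chr14:22555001-22560000 to chr14:22980001-22985000 at percentile 73.4, had a counterpart of 410 kb after sorbitol, from chr14:22560001-22565000 to chr14:22970001-22975000 at percentile 55.6. A second protein-coding record, ENSG00000259132, starts within 10 kb of every AJUBA anchor, so these loops cannot be given to AJUBA alone. NUAK2 had 1 loop in every list but eGFP-YAP sorbitol. Both control lists joined chr1:205270001-205275000, in TMCC2, to chr1:205325001-205330000 over 55 kb, at percentiles 50.2 and 38.6. WWC2 and FRMD6, a FERM-domain protein upstream of the kinases, each had 1 loop, in wild-type control, at percentiles 5.69 and 9.99. With any annotated transcript start, WWC2 had loops in every list, and FRMD6 had 3 in wild-type control only. With anchors up to 25 kb from the gene-record start, both also had 1 loop in wild-type sorbitol.

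The 8 cytoskeleton and adhesion genes had few loops, 1 in wild-type control, 3 in wild-type sorbitol and 2 in each eGFP-YAP list. TNS3, DLC1, CDC42EP3 and ASAP1 had none at the gene-record start, but each had loops with any annotated transcript start. Their small counts allow no order of the lists.

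VCL, the actin linker vinculin, had no control loop and 1 loop in each sorbitol list. In wild type it spanned 100 kb at percentile 17.1, and in eGFP-YAP it spanned 125 kb to the start of CAMK2G at percentile 32.8, and the loops did not match each other. ARHGEF17 had 1 loop in every list but eGFP-YAP control. Its sorbitol loops ended in the phosphodiesterase gene PDE2A, at chr11:72635001-72640000 over 675 kb in wild type and at chr11:72640001-72645000 over 665 kb in eGFP-YAP, at percentiles 43.3 and 90.9. Their gene-side anchors were chr11:73310001-73315000 and chr11:73305001-73310000, and the wild-type control loop ran the other way, 345 kb downstream. ANKRD1 had 1 loop in wild-type sorbitol and 1 in eGFP-YAP control, with identical anchors, chr10:90910001-90915000 and chr10:91250001-91255000 in PCGF5, over 340 kb at percentiles 75.9 and 90.03. An anchor in each control list lay 11.1 kb from the ANKRD1 start and was not counted. DOCK5, a Rac exchange factor, had 1 loop, in eGFP-YAP control, at percentile 2.88.

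Of the 4 nuclear and cell cycle genes, RBMS3, an RNA-binding protein, and BIRC5, or survivin, had no loop. FOXF2, a forkhead transcription factor, had 1, 1, 3 and 1 loops in the order wild-type control, wild-type sorbitol, eGFP-YAP control and eGFP-YAP sorbitol. The control lists shared a loop to chr6:915001-920000, from chr6:1380001-1385000 in wild type over 465 kb at percentile 52.7 and from chr6:1385001-1390000 in eGFP-YAP over 470 kb at percentile 72.0. The eGFP-YAP lists shared one to the start of EXOC2 at chr6:690001-695000, over 695 kb at percentile 26.0 in control and over 700 kb at percentile 77.9 after sorbitol. In wild-type sorbitol the loop was a weak one of 70 kb to the start of FOXQ1, at percentile 3.57. Other wild-type sorbitol loops, at percentiles 36.6 and 8.79, began 10.4 kb from the FOXF2 start and were not counted. GADD45A, a growth arrest protein, had 2 loops in each control list and none after sorbitol. One of them joined chr1:67685001-67690000 to chr1:67750001-67755000, in GNG12, with identical anchors in both lists, at percentiles 40.1 and 7.36.

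Few target loops of a control list were called again after sorbitol when both anchor centres had to lie within 10 kb. In wild type 3 of 36, or 8.33% (2.88 to 21.8), were called again, beside 10.9% of loops at other starts. In eGFP-YAP 8 of 47, or 17.0% (8.89 to 30.1), were called again, beside 11.5%. Read from the sorbitol side, 8 of 14 target loops in eGFP-YAP, or 57.1% (32.6 to 78.6), had a match in control, beside 24.8% of loops at other starts, while in wild type 3 of 15 did so beside 16.6%. The 8 eGFP-YAP loops are at IGFBP3, EDN1, FJX1, CRIM1, AMOTL2, AJUBA and FOXF2, with 2 at CRIM1.

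Between the lines, 19 of the 36 wild-type control loops at targets, or 52.8% (37.0 to 68.0), had a match in eGFP-YAP control, beside 47.5% at other starts. In the other direction 18 of 47, or 38.3% (25.8 to 52.6), did so beside 33.4%. After sorbitol 5 of the 15 wild-type loops, or 33.3% (15.2 to 58.3), had a match in eGFP-YAP, beside 28.9%. In the other direction 5 of 14, or 35.7% (16.3 to 61.2), did so beside 28.3%. Each of these intervals contains the share of the other starts, so no difference between targets and other genes was detectable at these counts. No target loop was matched in all 4 lists.

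Loops at the targets had longer median spans than loops at other starts in all 4 lists. Their median span was 250 kb (150 to 420) in wild-type control, 270 kb (100 to 455) in wild-type sorbitol, 335 kb (235 to 445) in eGFP-YAP control and 335 kb (110 to 700) in eGFP-YAP sorbitol. Loops at other starts had medians of 185 kb, 185 kb, 210 kb and 200 kb, and only the interval of eGFP-YAP control lies wholly above its counterpart. With the start required inside the anchor, the target medians were 185 kb, 270 kb, 258 kb and 235 kb in the same order. No median of loops at other starts is given for that limit. Spans of 500 kb or more were found in 9 of 36, 3 of 15, 13 of 47 and 6 of 14 target loops, and made up 11.1%, 9.97%, 14.3% and 11.1% of the loops at other starts. These long loops come mainly from TGFB2, IGFBP3, EDN1, FJX1 and FOXF2. Loops of 1 gene often lie at the same or nearby gene-side anchors, and the intervals count each of them as independent. The median percentile of the target loops was 50.7, 43.3, 48.2 and 61.0, with intervals that all contain the median of the loops at other starts.

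**Figure D5:**
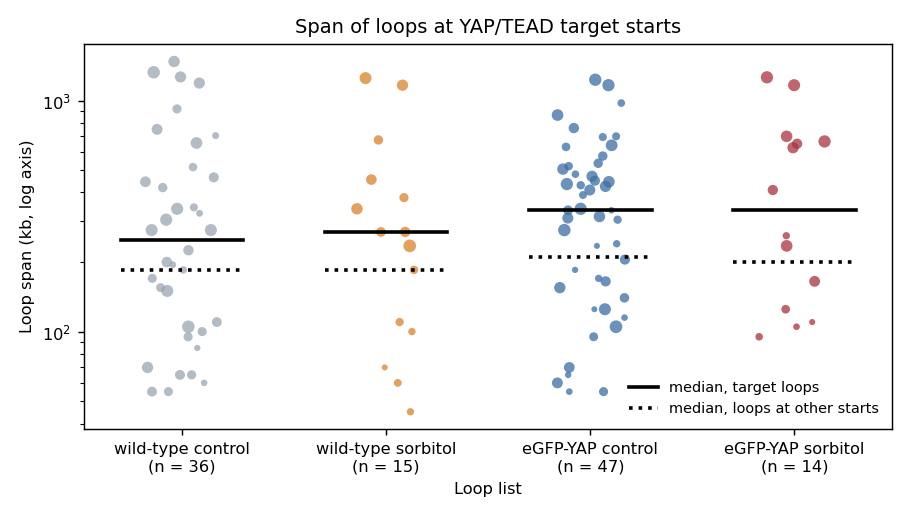
Span of each loop at a YAP/TEAD target start (y axis, kb, log axis) in the 4 lists, with larger points for a higher score percentile. Solid bars are the medians of the target loops, 250, 270, 335 and 335 kb, and dotted bars those of loops at other starts, 185, 185, 210 and 200 kb.

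The targets lie in gene-poor surroundings. A median of 5 other protein-coding starts lay within 500 kb of a target start, and a median of 12 did so around other genes. Of the 37 targets, 26 had at most 8 such neighbours, and 50%, 30.8%, 53.8% and 26.9% of these had a loop in the order wild-type control, wild-type sorbitol, eGFP-YAP control and eGFP-YAP sorbitol. Other starts with at most 8 neighbours had a loop in 27.8%, 19.7%, 35.1% and 21.6%. A protein-coding start lay at both ends of 13.9%, 26.7%, 14.9% and 35.7% of the target loops, beside 19.0%, 55.5%, 23.7% and 57.5% of the loops at other starts. How much the neighbourhood accounts for the difference was not tested.

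The anchors at target starts were also read for CTCF motifs with at most 1 mismatch. A motif was found in 12 of 36 (33.3%, 20.2 to 49.7) gene-side anchors in wild-type control and 15 of 47 (31.9%, 20.4 to 46.2) in eGFP-YAP control. After sorbitol it was found in 2 of 15 (13.3%, 3.74 to 37.9) and 2 of 14 (14.3%, 4.01 to 39.9). At other starts the shares were 28.7%, 35.3%, 20.9% and 23.9% in the same order, each within the interval of the targets. The sorbitol intervals overlap those of control, and the difference was not tested. Target loops with a motif of 1 orientation at each end numbered 6 and 9 in the control lists. The motifs faced each other in 3 and 7 of them, beside 65.1% and 75.25% of such loops at other starts. The facing target pairs were at CCN1, CRIM1 and AJUBA in wild-type control. In eGFP-YAP control they were at CCN1, CCDC80, IGFBP3, FJX1, CRIM1 and, with 2 loops, AMOTL2. No target loop of the sorbitol lists had a motif of 1 orientation at each end, so facing pairs could not be scored there. Of the loops at other starts, only 154 of 3641 in wild-type sorbitol and 282 of 3762 in eGFP-YAP sorbitol had such motifs. The gene-side anchors held on average 3.06, 2.87, 3.62 and 3.07 copies of CATTCC in wild-type control, wild-type sorbitol, eGFP-YAP control and eGFP-YAP sorbitol. At other starts the means were 2.78, 2.70, 2.78 and 2.68, and the CCN1 anchor held 9. The partner anchors of the target loops held 3.17, 3.67, 3.26 and 3.07, beside 2.85, 2.72, 2.83 and 2.68 for other starts. The higher means were thus not limited to the gene side. An anchor shared by several loops was counted once per loop.

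Among 21 genes of the Hippo pathway itself, 7 had a loop at their start in wild-type control, 6 in wild-type sorbitol, 5 in eGFP-YAP control and 6 in eGFP-YAP sorbitol, beside 29.2%, 27.8%, 37.6% and 28.6% of the starts other than the YAP/TEAD targets. Those with a loop in at least 2 lists were TEAD1, TEAD2 and TEAD4, the kinases STK3, STK4 and MAP4K4, and the cadherins FAT4 and DCHS1. Of the background starts, 19.5% had a loop in 2 lists, 11.3% in 3 and 6.72% in 4. FAT4 had 2 loops in wild-type control and 3 in eGFP-YAP control, STK3 had 1 in each, and neither had any after sorbitol. TEAD4 and STK4 had 1 in each sorbitol list and none in control. Control-only loops in both lines were found at 7.58% of the same background starts, and sorbitol-only loops in both lines at 5.22%.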

How the data were processed

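The deposited files are 4 lists of loops called on Hi-C maps of hg38 (GRCh38), a build given by the submitters' processing notes. The column headers are those of SIP, per the file headers; its version and settings, the aligner and the sequencing depth are not given in the sources used here. The notes also name Trim Galore, FastQC, MultiQC and Salmon 1.10.0, with no role. Every anchor is 5 kb wide. The deposited score of a loop is the authors' value without a stated scale and was used only to rank loops within a list. Lists were assigned to conditions by name, and 0 columns were left without a group.

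Gene starts were taken from GENCODE release 44 on 23 chromosomes, and loops of different lists were matched when both anchor centres lay within 10 kb. Shares have Wilson intervals, ratios exact intervals and medians order-statistic intervals, all at 95%. Coordinates are given for loops matched between lines or treatments, or at percentile 90 or more where strongest for the gene in its list. Functions were tested on simulated data. Python 3.11.15, numpy 2.4.6, pandas 2.3.3, scipy 1.17.1 and matplotlib 3.10.9 were used. The genes and lists were chosen with earlier results of these data known. The 18 samples of other conditions were not used here.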

Additional observations from a re-analysis of the deposited data

Results flagged for a closer look

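At 3 genes the change in loop count with sorbitol had opposite signs in the 2 lines. THBS1 changed by 1 loop in wild type and by -3 in eGFP-YAP. CRIM1 changed by 1 and by -2, and ANKRD1 by 1 and by -1. With anchors up to 25 kb from the start the wild-type change was 0 at THBS1 and ANKRD1, and with the start inside the anchor ANKRD1 had no loop in any list, so the opposite signs held under both limits at CRIM1 alone. Each line has 1 list per treatment, so the difference was not tested at any of them.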

How the results depend on the processing

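Of 78 alternative values, 39 moved, a share or median out of its counting interval or a count by over 1.5 times. With the start required inside an anchor, 21.6%, 13.5%, 29.7% and 16.2% of targets had a loop (wild-type control, wild-type sorbitol, eGFP-YAP control, eGFP-YAP sorbitol). Of the other starts, 8.26%, 12.7%, 13% and 13.7% had one. The target loops numbered 12, 9, 20 and 7. Control-only targets were then 7 in each line, beside 6.67% of the other starts in wild type and 9.6% in eGFP-YAP. At 25 kb the share was 67.6%, 51.4% and 73.0% in the first 3 lists, beside 48.8%, 38.3% and 59.2% of the other starts. Target loops numbered 26, 74 and 23 in the last 3. With any annotated transcript start the control shares were 67.6% and 73.0%, beside 42.5% and 51.3% of the other genes. With control lists shortened to the length of the sorbitol lists, the control shares were 27.0% and 29.7%, and the loops 14 and 15. Control-only targets were then 6 and 4, and sorbitol-only targets 7 and 4. The other starts gave control shares of 12.5% and 11.7%, with 6.41% and 5.92% control-only and 21.6% and 22.8% sorbitol-only. In the upper 50% of each list by score the shares were 35.1%, 13.5% and 35.1% in the first 3 lists. The other starts gave 15.9%, 16.7% and 19.4%. Target loops numbered 19, 6, 23 and 9 in the 4 lists. With identical anchors required, 0% and 2.13% of the control loops were called again, and 8.33%, 13.3%, 6.38% and 14.3% were matched in the other line. At 25 kb 72.2% of the wild-type control loops were matched in eGFP-YAP control. Merging neighbouring loops, and leaving out TGFB2, which was chosen after seeing the data, moved no count by over 1.5 times, and no median span left its interval. Some values inside their wide intervals still moved by over 1.5 times. In the upper 50% by score the median span of eGFP-YAP sorbitol was 650 kb. Its share of targets with a loop was 18.9%, beside 14.9% of the other starts. With the same cut 5.26% of the wild-type control loops were called again. At 25 kb 13.9% of those loops were called again, and 57.1% of the eGFP-YAP sorbitol loops were matched in wild-type sorbitol. No paired analysis was possible because each condition has 1 list. The lists give no read depth, so a start without a loop has no loop in that list, which does not show that no contact is made.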
